A study of Mus musculus with 36 samples.

Results

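The acute-phase response genes described here are 33 genes whose RNA the liver makes in large amounts during inflammation, or that carry the signal to do so. They were measured by RNA sequencing in 36 mouse livers. The genes were taken by symbol from the tables of gene expression, and each of the 33 was listed on 1 row among 24066 genes that were. A further part of the rule set apart the libraries in which Saa1 exceeded 10000 FPKM, the count of sequenced fragments of a gene scaled by the gene's length and by the size of the library. The list was put together with results of these data known, and the high libraries were picked on Saa1 itself, so their values are a description and no test was run on them.

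The study asked how chronic intermittent hypoxia (IH), a model of the oxygen swings of sleep apnea, changes the daily program of the liver. All mice were wild-type C57BL/6JRj males, 16 weeks old by the labels, housed in groups on a 12 h light and 12 h dark cycle with free access to chow. The IH mice had breathed air that cycled between 5% and 21% oxygen, 60 times per hour, from Zeitgeber time (ZT) 0 to ZT8 every day for 4 weeks, where ZT0 is lights on, while the control mice were given air-to-air cycles in the same way. Whole livers were frozen at ZT0, ZT4, ZT8, ZT12, ZT16 and ZT20 from 3 mice per time point and condition, so each library is 1 animal. A whole-body exposure in whole liver does not separate the hepatocytes from the other cells that respond, and in bulk liver fewer cells of a type and less RNA per cell cannot be told apart.

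The acute-phase response is the rapid change in the proteins that the liver secretes into plasma after infection, injury or another inflammatory stimulus. Interleukin-6 acts through its receptor and the transcription factor STAT3, interleukin-1 acts through NF-kappaB, and C/EBP factors join both at the promoters of hepatocytes. Serum amyloid A and the pentraxins are the proteins that increase most, fibrinogen and haptoglobin increase less, and in mice the pentraxin that responds strongly is serum amyloid P (Apcs) rather than C-reactive protein (Crp).

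The libraries were liver by their markers. All 8 hepatocyte markers were present, albumin was between 24881 and 36930 FPKM in the 9 libraries compared below, and the summed level of the 8 markers was 40137 to 58596 FPKM in the 33 libraries with low Saa1. FPKM over all 24883 rows summed to between 561964 and 626371 in 35 libraries and to 808274 in replicate 2 of the controls at ZT12. No counts were available, so absolute depth is unknown. The smallest steps of 903 low genes put 1 fragment at 0.785 to 1.27 times its median worth across libraries. Only values within 1.5 times the lowest of each gene entered, which limits this range in advance, so it does not show that depth was similar. Tests covered 13215 genes whose mean over the 36 libraries reached 0.1 FPKM, all 33 acute-phase genes among them, and all 33 also had a median above that level in the other 33 libraries (lowest for Il1rn, 0.264 FPKM).

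Promoter sequences are given first for 5 of the genes, because they stand for the main groups below: serum amyloid A, lipocalin-2, metallothionein and fibrinogen. RefSeq start sites with 300 bases of promoter on GRCm38.p6, the assembly also called mm10, were found for 25 of the 33 genes, and not for Orm1, Hp, C4b, Cd14, Lbp, Serpina3m, Trf and Cebpd. The 250 bases before each start site are printed 5′ to 3′ on the strand of the gene. Capitals mark the letters TTNNGNAA (a C/EBP site), TTCNNNGAA (a STAT site), the STAT site with 1 more base between its arms and, in the metallothionein promoter, TGCGCNC (a metal response element), each searched on both strands.
Saa1, chr7:46742981-46743230, minus strand: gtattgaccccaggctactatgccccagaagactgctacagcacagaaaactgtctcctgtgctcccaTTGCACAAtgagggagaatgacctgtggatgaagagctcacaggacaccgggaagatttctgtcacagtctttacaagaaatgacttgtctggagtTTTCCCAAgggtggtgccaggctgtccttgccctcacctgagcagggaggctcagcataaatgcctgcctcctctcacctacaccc
Saa2, chr7:46751583-46751832, plus strand: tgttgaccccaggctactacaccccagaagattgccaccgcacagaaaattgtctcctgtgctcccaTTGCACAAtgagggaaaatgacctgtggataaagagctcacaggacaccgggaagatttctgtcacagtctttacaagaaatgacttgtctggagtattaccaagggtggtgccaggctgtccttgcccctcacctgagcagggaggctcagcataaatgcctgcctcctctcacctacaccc
Lcn2, chr2:32387740-32387989, minus strand: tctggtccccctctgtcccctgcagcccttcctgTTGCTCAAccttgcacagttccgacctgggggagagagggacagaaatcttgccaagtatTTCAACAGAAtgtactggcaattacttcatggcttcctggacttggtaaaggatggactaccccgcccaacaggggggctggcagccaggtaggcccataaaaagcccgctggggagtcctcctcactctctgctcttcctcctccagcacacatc
Mt2, chr8:94172368-94172617, plus strand: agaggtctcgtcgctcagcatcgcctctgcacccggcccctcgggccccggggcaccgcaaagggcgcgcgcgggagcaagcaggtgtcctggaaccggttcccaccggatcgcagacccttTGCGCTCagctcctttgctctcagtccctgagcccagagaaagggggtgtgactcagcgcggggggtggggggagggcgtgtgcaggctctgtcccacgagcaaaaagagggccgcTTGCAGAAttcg
Fga, chr3:83025903-83026152, plus strand: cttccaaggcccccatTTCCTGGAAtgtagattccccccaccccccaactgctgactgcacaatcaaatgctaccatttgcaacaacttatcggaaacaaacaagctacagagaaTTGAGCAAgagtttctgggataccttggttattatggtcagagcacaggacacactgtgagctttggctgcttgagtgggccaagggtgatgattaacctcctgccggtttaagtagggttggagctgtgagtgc

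The C/EBP letters were found in 17 of the 25 promoters (68.0%), against 40.7% of 32544 mouse promoters of the same length. TTCNNNGAA was found in 6 (24.0%, against 8.33%): Apcs, Fga, Fgb, Itih4, Socs3 and Steap4. The wider STAT site was found in 1 (Lcn2) and the NF-kappaB site in 1 (Steap4), shares of 4.0% against 6.98% and 8.49%. TGTTCT, one arm of the site of the glucocorticoid receptor, was in 7 (28.0%, against 18.9%), and TGCGCNC was in Fgg, Mt1 and Mt2 (12.0%, against 15.5%). The one overlap between motifs was of the C/EBP and NF-kappaB letters in Steap4. Saa1 and Saa2, which lie head to head on chromosome 7, shared 287 of 301 aligned promoter positions (95.3%), whereas Saa1 and Saa4 shared 44.0% and Mt1 and Mt2 46.3%. A match is a string of letters in this window and not a site shown to be bound. The RefSeq starts of Lcn2 and Socs3 lay 513 and 681 bases inside the gene ends of the GENCODE M21 annotation, and those of the other genes lay within 173 bases.

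Saa1 (chromosome 7, 46740497 to 46742980) and Saa2 (chromosome 7, 46751790 to 46754313) encode the serum amyloid A proteins that associate with high-density lipoprotein in inflammation. Saa1 was 49.8, 382 and 1235 FPKM in the controls at ZT0, 2357, 57.4 and 2435 at ZT4, 828, 24.0 and 19.1 at ZT8, 38.7, 20546 and 31.2 at ZT12, 43.8, 46.1 and 12912 at ZT16 and 2242, 41.6 and 161 at ZT20. Under IH it was 111, 22865 and 79.7 FPKM at ZT0, 30.6, 72.1 and 57.9 at ZT4, 25.2, 53.1 and 21.9 at ZT8, 106, 2469.7 and 73.4 at ZT12, 79.6, 88.1 and 56.0 at ZT16 and 320.1, 19.6 and 92.1 at ZT20. Single mice stood far above the other mice of their group in both conditions and at several times of day, and the groups overlapped at every time point. In order of Saa1, 3 livers were above 10000 FPKM, the next 6 were between 828 and 2470 FPKM, and the tenth was at 382 FPKM. Of the 9 highest libraries 7 were controls and 2 were IH. The 3 highest were IH ZT0 replicate 2, Control ZT12 replicate 2 and Control ZT16 replicate 3, and the nearest values on either side of the threshold were 12912 and 2470 FPKM.

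**Figure D1:**
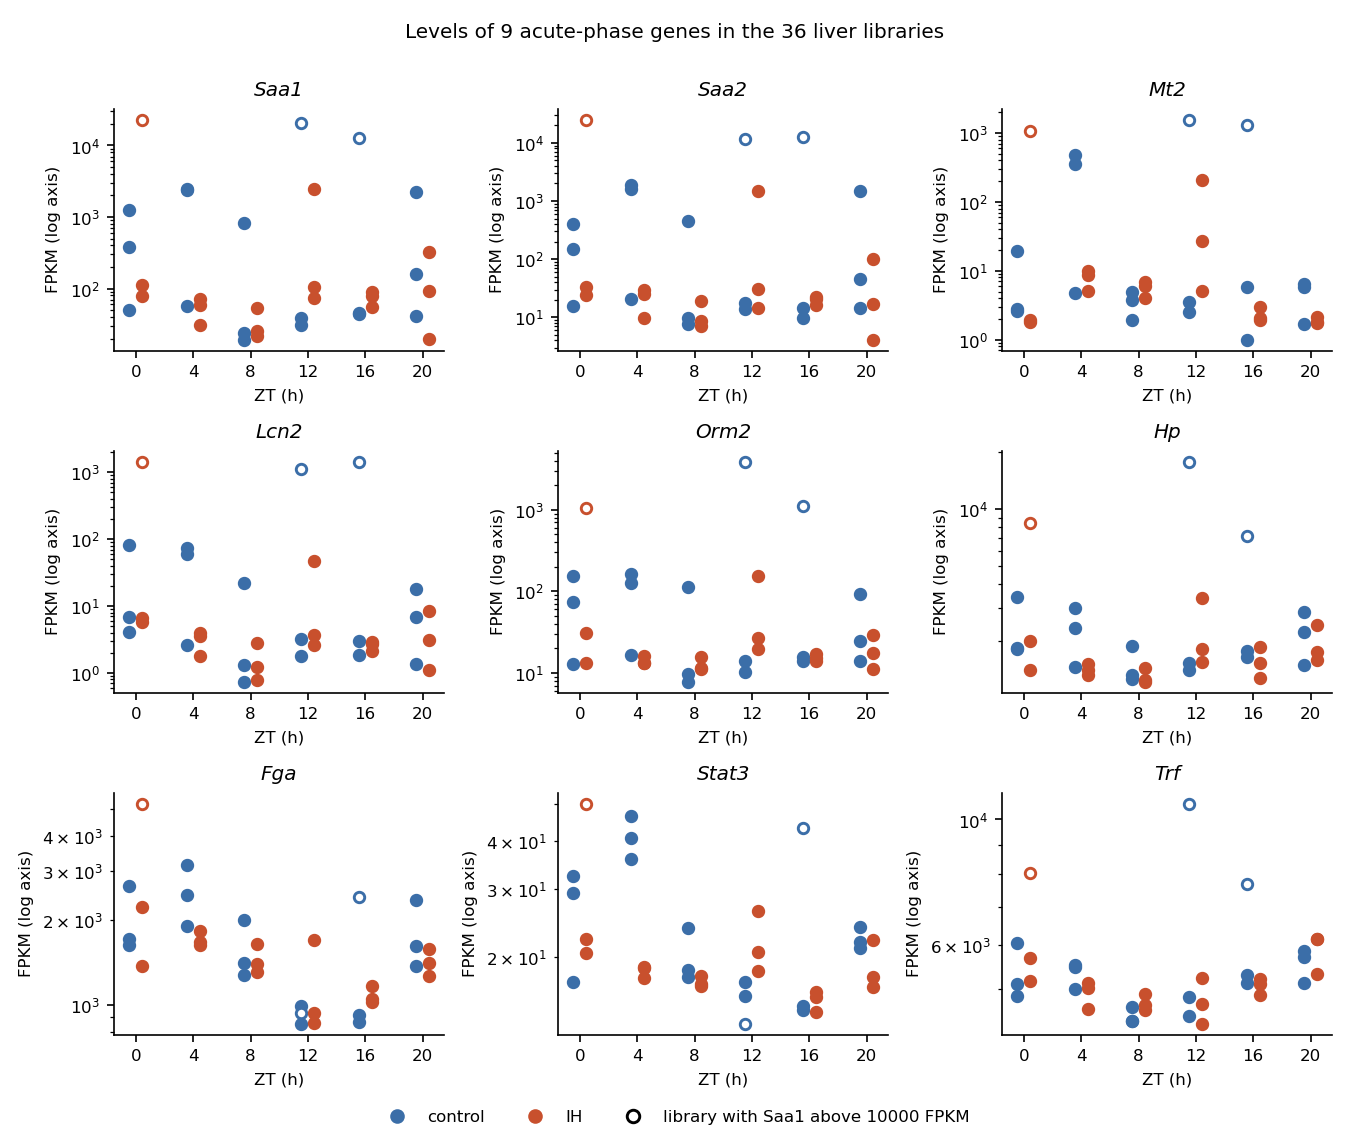
FPKM on a log axis against ZT in hours for 9 acute-phase genes, 1 point per liver, control in blue and IH in orange, with open points for the 3 libraries with Saa1 above 10000 FPKM. The open points are the highest of all 36 for Saa1, Saa2, Mt2, Lcn2, Orm2, Hp and Trf, whereas for Fga and Stat3 the open point of the controls at ZT12 lies among or below the filled points.

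In those 3 livers the acute-phase genes were high as a group. Called higher here means at least 2-fold above the mean of the other 2 libraries of the same time point and condition on the log2(FPKM + 1) scale and outside their range. In IH ZT0 replicate 2 this held for 29 of the 33 genes, in Control ZT16 replicate 3 for 27, and in Control ZT12 replicate 2 for 22. Across all 13215 genes it held for 1.13%, 1.17% and 3.66%. Saa1 is counted among the 33, and its call follows from the choice of these livers. None of the 33 was called lower in any of them, against 0.704%, 0.431% and 7.01% of all genes. In Control ZT12 replicate 2 these shares depended on scaling: by median of ratios 27 of the 33 genes were higher, with 8.63% of all genes higher and 2.64% lower, and by a common sum 18 were higher and 1 lower, with 1.6% and 16.9% of all genes. Of the 33, 19 were called higher in all 3 livers (0.401% of all genes were), 9 in 2, 3 in 1, and C4b and Crp in none. The 33 genes together made up 18.6% of all summed FPKM in IH ZT0 replicate 2, 13.6% in Control ZT12 replicate 2 and 12.7% in Control ZT16 replicate 3, against 2.51% to 6.15% (median 3.08%) in the other 33 libraries.

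**Figure D2:**
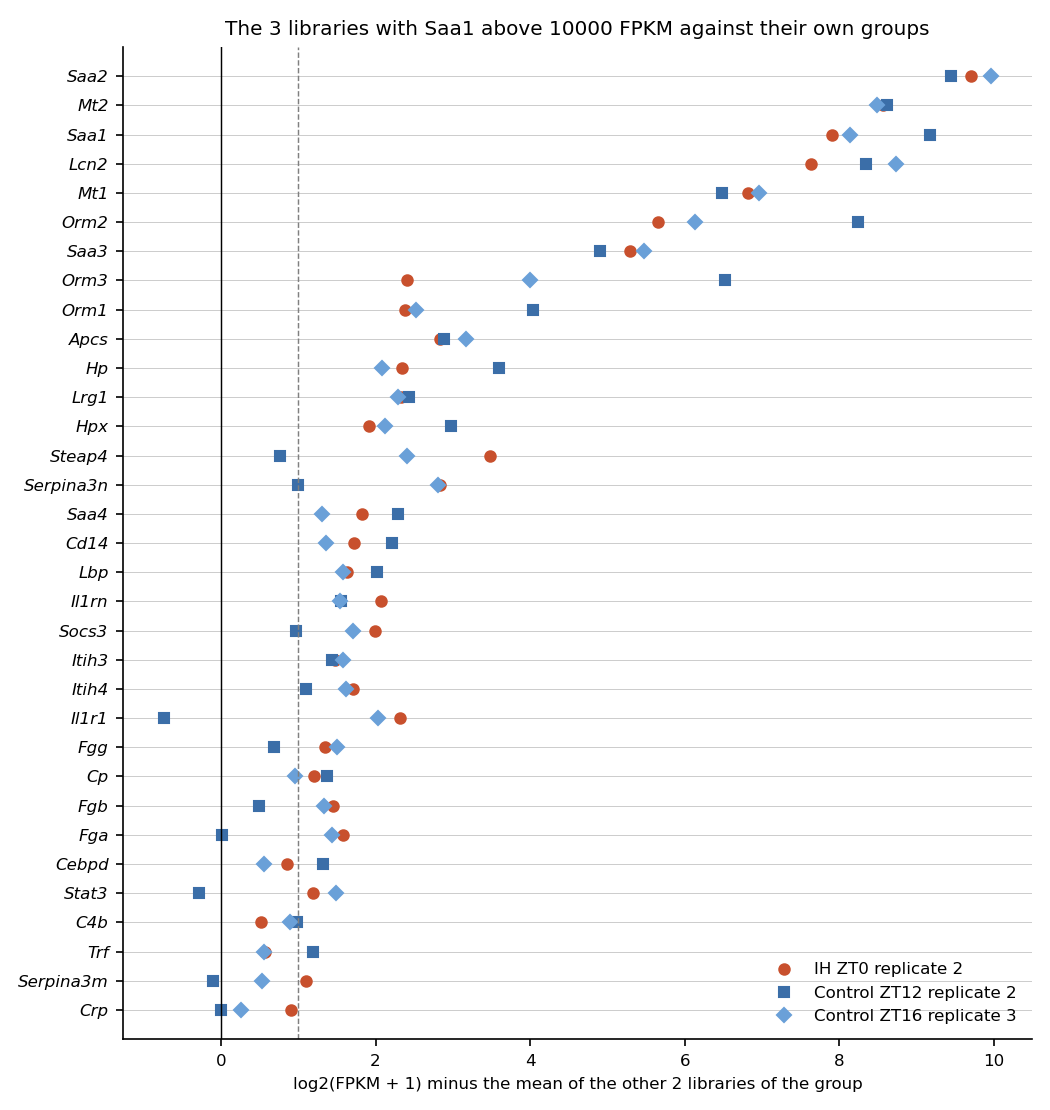
Difference in log2(FPKM + 1) between each library with Saa1 above 10000 FPKM and the mean of the other 2 libraries of its group, 1 row per gene, ordered by the mean of the 3. The mean of the 3 is 9.70 for Saa2 and 0.39 for Crp, the dashed line marks a 2-fold difference, and the squares of Control ZT12 replicate 2 lie to the left of the other symbols for the fibrinogens, Serpina3n, Steap4, Il1r1 and Stat3.

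The serum amyloid A genes covered the widest range. Saa2 was 24893, 11764 and 12775 FPKM in IH ZT0 replicate 2, Control ZT12 replicate 2 and Control ZT16 replicate 3, the order kept in all such lists below, which was 853, 736 and 1059 times the mean of their group mates. Saa3 (chromosome 7, 46711998 to 46715700), made by many cell types in inflammation, was 357, 192 and 324 FPKM in these livers and 3.21 to 26.6 (median 5.94) in the other 33. Saa4 (chromosome 7, 46727998 to 46732603), which is made constitutively, was 361, 631 and 467 FPKM against 80.9 to 357 (median 123). The family thus ran from differences of 9.70, 9.45 and 9.96 on the log2(FPKM + 1) scale for Saa2 to 1.83, 2.29 and 1.30 for Saa4. The ratio of Saa2 to Saa1 was higher in 2 of the 3 than in any other library: Saa2 was 1.09, 0.573 and 0.989 times Saa1 in the 3 livers, and 0.185 to 0.808 times (median 0.348) in the others. Their transcripts are near copies of each other, so how fragments were divided between them is uncertain.

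Lcn2 (chromosome 2, 32384633 to 32388252), the lipocalin that binds bacterial siderophores, was 1436, 1111 and 1432 FPKM in the 3 livers. Their group mates held 6.61 and 5.83 at ZT0 under IH, 1.78 and 3.24 at ZT12 and 1.85 and 2.96 at ZT16. The metallothioneins, small proteins that bind zinc and copper and lie side by side on chromosome 8, behaved alike: Mt1 (94179082 to 94180327) was 794, 1657 and 1143 FPKM and Mt2 (94172664 to 94173568) 1087, 1555 and 1328 FPKM. In the other 33 libraries Mt2 was 0.993 to 477 (median 4.08), the widest range of any of the 33 genes there. Steap4, a metalloreductase of the cell membrane, was 293, 66.5 and 169 FPKM, and the values of IH ZT0 replicate 2 and Control ZT16 replicate 3 were outside the range of the other libraries, 16.0 to 138 (median 30.0). Ceruloplasmin (Cp), the copper-carrying ferroxidase of plasma, was 566, 459.7 and 352 FPKM, and transferrin (Trf), the iron carrier, 8026, 10660.2 and 7671 FPKM, against 171 to 317 (median 219) and 4344 to 6150.1 (median 5116). These 3 livers had the 3 highest values of both among the 36, although 2 of the 3 differences of Trf were less than 2-fold.

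The orosomucoids are plasma glycoproteins of a lipocalin fold, encoded by 3 neighbouring genes on chromosome 4. Orm1 was 4779, 10070.3 and 4032 FPKM, Orm2 1066, 3887 and 1108 FPKM and Orm3 13.1, 202 and 41.0 FPKM in the 3 livers. For all of them Control ZT12 replicate 2 was the highest, with 3887 FPKM of Orm2 against 13.8 and 10.2 in its group mates. These genes are also close copies, and the division of fragments between them is uncertain. Haptoglobin (Hp), which binds free haemoglobin, was 8466, 17790.4 and 7185 FPKM against 1213 to 3408 (median 1586) elsewhere, and hemopexin (Hpx), which binds free haem, was 7183, 13260.2 and 7022 FPKM against 1389 to 3663 (median 1716). Both were again highest in Control ZT12 replicate 2. Lrg1, a leucine-rich glycoprotein of plasma, was 1756, 1394 and 1419 FPKM.

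Among the pentraxins, Apcs was 619.8, 292 and 289.9 FPKM against 27.4 to 147 (median 50.3) in the other libraries. Crp was 450.1, 163 and 294 FPKM against 143 to 273 (median 219), and in Control ZT12 replicate 2 it lay between its group mates, at 155 and 172 FPKM. C4b, a complement component, was 284, 336 and 299 FPKM, below a 2-fold difference in all 3. Of the genes for recognition of lipopolysaccharide, Lbp, the binding protein of plasma, was 93.7, 73.2 and 52.8 FPKM against 15.6 to 71.1 (median 26.6), and its co-receptor Cd14 was 4.55, 6.16 and 2.88 FPKM against 0.341 to 2.33 (median 0.639). The inter-alpha-trypsin inhibitor heavy chains Itih3 and Itih4 were called higher in all 3 livers, at 853, 504 and 764 and 1585, 791 and 1205 FPKM.

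Control ZT12 replicate 2 differed from the other 2 livers in part of the response. The fibrinogen chains Fga, Fgb and Fgg, the precursors of fibrin, lie together on chromosome 3 (83007724 to 83049863). Fga was 5218 FPKM in IH ZT0 replicate 2, against 2229 and 1376 in its group, and 2416 in Control ZT16 replicate 3, against 919 and 867. In Control ZT12 replicate 2 it was 930.1, between its mates at 987 and 853. Fgb was 7326, 2372 and 3606 FPKM and Fgg 5933, 1849.6 and 3126 FPKM, and in Control ZT12 replicate 2 both were above their mates, at 1724 and 1655 and 1168 and 1130.1 FPKM, but less than 2-fold. The protease inhibitor Serpina3n was 1022, 267 and 932 FPKM, and its neighbour Serpina3m 413, 185 and 357 FPKM. Both belong to a cluster of near copies.

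Of the signalling genes, Stat3 and Il1r1 showed the same split. Stat3, the transcription factor downstream of interleukin-6, was 50.0 FPKM against 20.5 and 22.2 in IH ZT0 replicate 2 and 43.4 against 14.6 and 14.9 in Control ZT16 replicate 3. In Control ZT12 replicate 2 it was 13.4 against 17.2 and 15.9, the lowest of all 36 libraries. That rank is of the deposited values, without removal of the trend with gene length described below. Il1r1, the receptor of interleukin-1, was 38.7, 5.59 and 30.9 FPKM, and the middle value was below its mates at 10.8 and 9.15. Socs3, the feedback inhibitor that STAT3 induces, was 12.7, 6.99 and 8.10 FPKM against 4.07 and 1.37, 4.91 and 1.82 and 1.94 and 1.65 in the respective groups. In contrast, Il1rn, the antagonist of the interleukin-1 receptor, was 3.97, 2.52 and 2.26 FPKM and higher in all 3, and Cebpd, a C/EBP transcription factor, was 4.39, 9.06 and 3.61 FPKM and was called higher only in Control ZT12 replicate 2.

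That library also stood apart in its summed level and by gene length. Its summed FPKM was the highest, and the median log2 difference of genes in the shortest of 4 length classes exceeded that of genes in the longest by 0.506, against -0.0856 to 0.0745 in the 33 libraries with low Saa1. The same contrast was -0.0672 in IH ZT0 replicate 2. With the trend in gene length removed, 23 of the 33 genes were called higher in Control ZT12 replicate 2, and 29 and 27 in the other 2 livers. C4b was the gene gained in Control ZT12 replicate 2, where its difference went from 0.98 to 1.14. Fibrinogens and Stat3 were still not called there. The difference of Stat3, a long gene with 9527 exonic bases, went from -0.28 to -0.05 on the log2(FPKM + 1) scale. That of Il1r1 went from -0.73 to -0.56. The low Stat3 of that library thus cannot be told apart from its trend with gene length.

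Neutrophil markers were also higher in sum in these livers, and Kupffer cell and macrophage markers in Control ZT12 replicate 2. The 11 measured neutrophil markers summed to 241.6 FPKM in Control ZT12 replicate 2, 15.7 in IH ZT0 replicate 2 and 14.3 in Control ZT16 replicate 3, against 0.587 to 8.86 in the other 33. S100a8 was 106 FPKM and Camp, a granule protein, 12.7 FPKM in Control ZT12 replicate 2, against at most 0.261 and 0.0631 in its group mates. Of the 7 neutrophil markers tested, 6 were called higher in that library, 2 (S100a8 and S100a9) in IH ZT0 replicate 2 and 3 in Control ZT16 replicate 3. The 12 Kupffer cell and macrophage markers summed to 456 FPKM in Control ZT12 replicate 2, with 10 of 12 called higher, and to 127.4 and 127.3 FPKM in the other 2 livers with 0 and 3 of 12, against 47.8 to 151 in the other 33. The 6 stellate cell markers, the 3 T and NK cell markers and the 3 B cell markers tested were called in none of the 3 livers. Stellate cell markers summed to 63.4 FPKM in IH ZT0 replicate 2, 41.6 in Control ZT12 replicate 2 and 50.6 in Control ZT16 replicate 3, each below both mates. Of 4 endothelial markers 1 was called, Kdr, which was lower in Control ZT12 replicate 2. The part of these cells in the levels of the acute-phase genes was not tested.

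Further plasma proteins and signalling genes were read from lists. Of 27 tested genes for other inflammation-induced plasma proteins, 4, 8 and 5 were called higher in the 3 livers and 1, 2 and 1 lower. Of all genes 1.13%, 3.66% and 1.17% were called higher and 0.704%, 7.01% and 0.431% lower. Fgl1, a fibrinogen-like protein, was 1309, 749 and 975 FPKM against 323 and 92.2, 74.0 and 120.1, and 101 and 79.8 in its groups, and Cxcl1, a chemokine for neutrophils, was 14.1, 133 and 29.7 FPKM. Hamp2, a paralog of hepcidin, was instead called lower in 2 of the 3, at 15.5 and 27.6 FPKM against 47.8 to 108 in the mates. Of 14 proteins that usually decrease in the acute phase, 1 (Igfals) was called lower in 1 liver, while the apolipoprotein Apoa4 was called higher in all 3, and Apoa1 and Apom in Control ZT12 replicate 2. Albumin was 26459, 32190 and 24881 FPKM, in each case below both mates but less than 2-fold. Of 27 tested genes of cytokine signalling, 2, 3 and 2 were called higher and 1, 6 and 0 lower. In Control ZT12 replicate 2 more were lower than higher, as was the case among all genes of that library. The split of all genes there turned with scaling, to 8.63% higher and 2.64% lower by median of ratios. Tlr2, a receptor for bacterial lipoproteins, was higher in all 3 and Osmr, the receptor of oncostatin M, in IH ZT0 replicate 2 and Control ZT16 replicate 3. Il6ra was 1.69 FPKM in Control ZT12 replicate 2 against 7.02 and 7.66, and was called lower there. Il6, Tnf and Osm reached at most 0.0782, 0.272 and 0.0491 FPKM in any of the 36 libraries.

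How the genes varied in the other 33 livers was tested, since the rule had not picked these as high. The list of genes was still put together with results of these data known, so the counts below are not independent evidence. The slope of each gene on Saa1, both as log2(FPKM + 1), was fitted with condition by time point as 12 groups, so it describes differences between mice of 1 group. Of 32 genes, 23 had a positive slope at an adjusted p under 0.05 (limma moderated test, Benjamini-Hochberg over 13214 genes), where 1.35% of all genes had. None had a negative one, where 4.09% of all genes had. In that direction 0 of the 32 reached an unadjusted p of 0.05, where 2168 of the 13214 genes did. The median slope was 0.13 over the 32 genes and -0.01 over all genes.

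Saa2 had a slope of 1.14 (standard error 0.031, adjusted p = 7.98e-18), so it differed between mice by slightly more than Saa1 did. The division of fragments between these near copies is uncertain, which limits that slope. Lcn2 had 0.68 (standard error 0.048, adjusted p = 2.4e-09), Orm2 0.57 (standard error 0.032, adjusted p = 2.44e-11) and Mt2 0.51 (standard error 0.11, adjusted p = 0.00559). These were the steepest, with Mt1 at 0.49 (standard error 0.076, adjusted p = 0.000489). A second tier, between 0.12 and 0.25, held Saa3, Apcs, Lrg1, Orm1, Orm3, Saa4, Steap4, Hp, Serpina3n, Hpx and the fibrinogens, of which Fgb had 0.12 (standard error 0.015, adjusted p = 1.92e-05) and Hp 0.16 (standard error 0.020, adjusted p = 2.82e-05). Itih3, Itih4, Lbp, C4b and Cp also passed, with 0.05 to 0.10. The 9 that did not were Il1r1, Cd14, Stat3, Trf, Crp, Il1rn, Cebpd, Serpina3m and Socs3: Stat3 had 0.05 (standard error 0.018, adjusted p = 0.0778), Trf 0.02 (standard error 0.0099, adjusted p = 0.173) and Socs3 -0.02 (standard error 0.068, adjusted p = 0.9). With 1 library left out, Il1r1 passed in 8 of 33 fits, Stat3 in 2 and Cd14 in 1.

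The slope held in part at lower levels. Among the 28 libraries with Saa1 at or under 1000 FPKM, a limit added after the data were seen, 14 of the 32 genes had a positive slope that passed (0.696% of all genes), and without Control ZT4 replicate 2 and Control ZT8 replicate 1, the 2 libraries whose Saa1 lay farthest from their group, 18 did (0.416%). The controls alone gave 20 (0.575%) and the IH libraries alone 6 (0.0984%), with median slopes of 0.12 and 0.13. Among these IH libraries Saa1 was 2470 FPKM in IH ZT12 replicate 2 and at most 320 FPKM in the others. How far the slopes in IH rest on that 1 liver was not tested. Of the negative acute-phase proteins 0 of 14, 3 of 27 other inflammation-induced proteins (Fgl1, Serpina10 and Serpina3c), 0 of 7 neutrophil markers and 0 of 12 Kupffer cell and macrophage markers passed in the 33 libraries. Of 27 genes of cytokine signalling, 2 had a positive slope that passed (Tlr2 and Tnfrsf1a) and 2 a negative one (Il1rap and Socs1). Cyp2e1, Dcn and Clec4g, 1 each of the hepatocyte, stellate and endothelial markers, had a negative slope that passed.

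**Figure D3:**
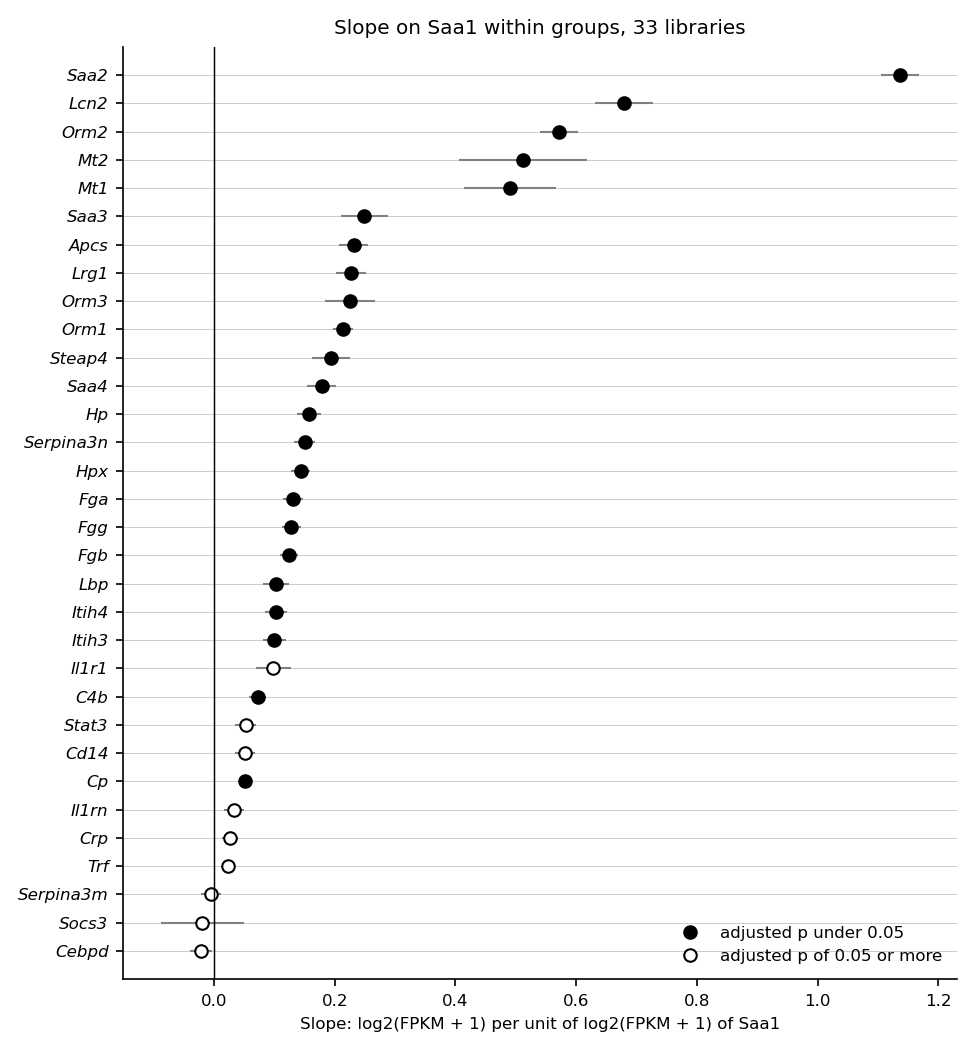
Slope of log2(FPKM + 1) of each gene on that of Saa1 within groups of 1 time point and condition, over 33 libraries, with bars of 1 standard error and filled points for an adjusted p under 0.05. The slopes run from 1.14 for Saa2 through 0.13 for the fibrinogen chain Fga to values at or below 0 for Serpina3m, Socs3 and Cebpd, and all filled points are positive.

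No difference in level between IH and control over the whole day passed the threshold for any of the 33 genes. With all 36 libraries 0 of 33 were higher and 0 lower (limma moderated test with time point as a factor, adjusted p under 0.05 over 13215 genes), where 0.303% and 0.053% of all genes were. At an unadjusted p of 0.05, 2 were lower and 0 higher, where 309 and 1116 of the 13215 genes were. The estimates were below 0 for 31 of the 33 genes, where 31.5% of all genes were, with a median of -0.23 against 0.03 over all genes. Most of the genes varied together with Saa1 between mice, so these signs are not independent of each other. Without the 3 high livers, 0 were again called, where 1.19% and 0.197% of all genes were. Of the estimates 28 of 33 were below 0, where 38.1% of all genes were, and the median was -0.16. At an unadjusted p of 0.05, 5 genes were lower and 1 (Serpina3m) higher, where 503 and 1426 of the 13215 genes were.

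The smallest P among lower estimates belonged to C4b and Saa4. C4b was 157 to 376 FPKM (median 219.6) in the 18 controls and 152 to 284 FPKM (median 173) in the 18 IH livers, a log2 difference of -0.24 (standard error 0.091, limma adjusted p = 0.32). Saa4 was 108 to 631 FPKM (median 159) in control and 80.9 to 361 FPKM (median 106) in IH, a difference of -0.54 (standard error 0.21, limma adjusted p = 0.33), and without the high livers -0.48 (standard error 0.17, limma adjusted p = 0.162). Saa4 values of all IH mice lay below those of all control mice at 4 time points. At ZT8, for example, they were 88.5, 93.9 and 103 FPKM in IH and 179, 109.8 and 108 in control, and at ZT20 105, 106 and 87.5 and 229, 119.7 and 127. Hpx had the next smallest P, at -0.39 (standard error 0.23, limma adjusted p = 0.548). Only Serpina3m (0.15, standard error 0.079, limma adjusted p = 0.496) and Crp (0.02, standard error 0.074, limma adjusted p = 0.945) were above 0. None of these differences passed the threshold.

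ZT4, in the middle of the daily exposure, had the most genes whose groups did not overlap. For 16 of the 33 genes all 3 IH livers were below all 3 controls, where this held for 7.79% of all genes, and for 0 they were all above, where it held for 26.7%. At each other time point 0 to 4 genes were all below, where 3.84% to 7.16% of all genes were, and 0 to 2 all above, where 4.59% to 11.8% were. The median difference over the 33 was -0.62 on the log2 scale, against 0.07 over all genes. With the spread of all 36 libraries 0 genes passed in either direction (0.885% of all genes were higher and 0.272% lower). At an unadjusted p of 0.05, 4 were lower and 0 higher, where 483 and 1689 of the 13215 genes were. No library with Saa1 above 10000 FPKM is at ZT4, but leaving those 3 out lowers the shared estimate of the spread, and 7 genes were then lower in IH: Stat3, Steap4, Saa4, Il1rn, Il1r1, Cd14 and Mt2. Of all genes 2.21% were then lower and 7.96% higher. The differences themselves were the same in both fits. The 3 livers were left out for their Saa1, and the acute-phase genes were high in them as a group. The smaller spread thus follows in part from that choice. The adjusted p without the 3 does not measure the full spread between mice.

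Stat3 was 18.9, 18.8 and 17.7 FPKM in IH and 46.3, 36.0 and 40.8 in control at ZT4, a difference of -1.11. Its limma adjusted p was 0.0521 (standard error 0.29) with all libraries and 0.000269 (standard error 0.16) without the 3. All 3 controls were high and the 3 IH livers were within 2 FPKM of each other. Steap4 was 19.4, 18.6 and 18.9 FPKM in IH and 128, 37.8 and 138 in control, a difference of -2.15 (limma adjusted p = 0.0914 with a standard error of 0.66, or 0.00264 with 0.39 without the 3). Il1r1 was 4.36, 4.96 and 5.47 against 13.5, 6.90 and 11.4 FPKM, a difference of -0.93 (limma adjusted p = 0.336, or 0.0328). Mt2 was 5.03, 10.0 and 8.69 against 359, 4.69 and 477 FPKM, so 2 controls were far higher and the other was below all 3 IH livers.

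**Figure D4:**
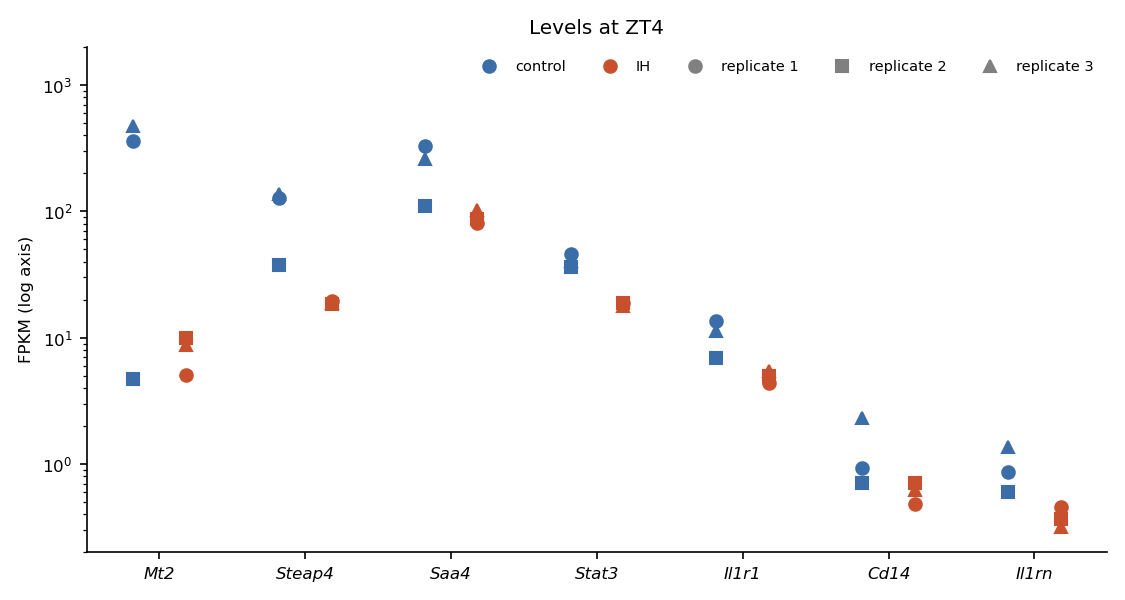
FPKM on a log axis at ZT4 for the 7 genes that were lower in IH without the libraries with Saa1 above 10000 FPKM, control in blue and IH in orange, with a symbol for each replicate number. Stat3 ranges from 36.0 to 46.3 FPKM in control and from 17.7 to 18.9 in IH, Mt2 of Control ZT4 replicate 2 (4.69) lies below the IH values, and for Cd14 that control (0.710) and the highest IH liver (0.709) nearly coincide.

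Control ZT4 replicates 1 and 3 were 2 of the 6 livers with Saa1 between 828 and 2470 FPKM, whereas replicate 2 had 57.4 FPKM. In that liver Stat3 was nevertheless 36.0 FPKM, and Socs3, at 21.5 FPKM, was the highest of all 36 libraries (IH 3.30, 3.51 and 2.02, control 5.26, 21.5 and 4.85). Stat3, Il1r1 and Il1rn were instead higher in replicates 1 and 3 than in replicate 2. Neutrophil markers summed to 4.93, 2.55 and 8.86 FPKM in the 3 controls and 1.29, 2.32 and 2.27 in the 3 IH livers, and Kupffer cell and macrophage markers to 102, 81.0 and 151 against 56.2, 103 and 81.9. Their part in the difference was not tested.

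At the other time points 0 of the 33 genes passed. Of all genes 0.272% were higher and 0.499% lower at ZT12, 0.00757% were called at ZT8 and the same share at ZT16, and 0.0% at ZT0 and at ZT20. At an unadjusted p of 0.05 (limma), 1 gene was higher in IH at ZT0 (426 of all 13215 genes) and 1 lower at ZT12 (1548). At ZT8, ZT16 and ZT20, 0 were in either direction, where 110 to 486 of all genes were in each. Without the 3 high livers the counts turned to 0 higher and 1 lower at ZT0 (596 and 488 of all genes) and 4 higher and 0 lower at ZT12 (566 and 1436). At ZT12, 31 of the 33 estimates were then above 0, where 38.4% of all genes were. Where a group held one of the 3 high livers, leaving it out turned the sign of the list's median: the median difference over the 33 genes was 0.41 at ZT0, -0.20 at ZT12 and -0.66 at ZT16, and without those libraries -0.28, 0.39 and 0.04. At ZT4, ZT8 and ZT20, where no library exceeded the threshold, it was -0.62, -0.07 and -0.25.

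The last question was whether these genes cycle over the day. A 24 h cosine was fitted to log2(FPKM + 1) within each condition and called at a nominal P of 0.01, which is the threshold the study applied with another method, BIO_CYCLE. With all libraries 2 of 33 genes (6.06%) were rhythmic in control, Fga and Fgg, where 20.0% of all genes were, and 6 of 33 (18.2%) in IH, Cp, Crp, Fga, Fgg, Lbp and Trf, where 39.9% of all genes were. Without the 3 high livers 12 of 33 (36.4%) were rhythmic in each condition, where 27.4% of all genes were in control and 42.4% in IH. The shares were thus below those of all genes with all libraries, and above in control and below in IH without the 3. The exclusion was made on Saa1, itself 1 of the 33 genes, and took out livers only at control ZT12 and ZT16 and at IH ZT0. Livers with Saa1 from 828 to 2470 FPKM stayed in, in control at ZT0, ZT4, ZT8 and ZT20 and in IH at ZT12. How far the calls, peaks and amplitudes without the 3 livers follow from this was not tested.

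The genes rhythmic in both conditions without the 3 livers were Cp, Crp, Fga, Fgb, Fgg and Lbp. Fga peaked at ZT 2.00 in control and ZT 2.12 in IH (standard errors 0.625 and 0.894 h), with amplitudes, from the mean to the peak, of 0.72 and 0.38 on the log2 scale (standard errors 0.13 and 0.092). Its control values were 2463, 1904 and 3166 FPKM at ZT4, and 919 and 867 in the 2 control livers kept at ZT16. Lbp peaked at ZT 2.17 in control and ZT 3.17 in IH, with amplitudes of 0.73 and 0.34 (standard errors 0.14 and 0.071). Cp peaked at ZT 2.12 and ZT 1.82, with the smaller amplitudes of 0.31 and 0.23 (standard errors 0.059 and 0.035). Crp was later in the night, peaking at ZT 22.1 and ZT 20.4 (standard errors 1.15 and 0.690 h), with amplitudes of 0.24 and 0.28. Of the genes called in IH alone, Saa4 peaked at ZT 13.4, Serpina3m at ZT 15.8, Serpina3n at ZT 9.28 and Trf at ZT 21.2.

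**Figure D5:**
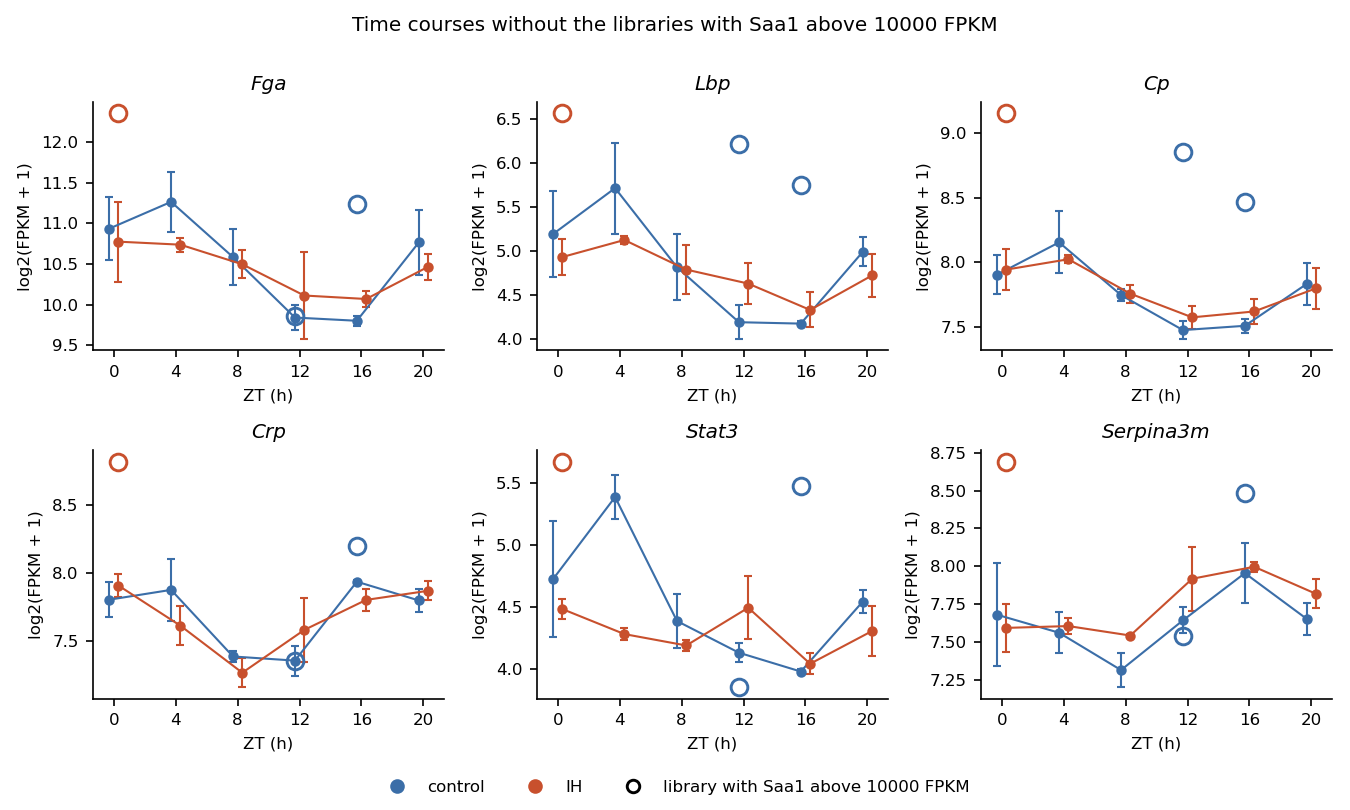
Mean of log2(FPKM + 1) with bars of 1 SD against ZT in hours for 6 acute-phase genes, control in blue and IH in orange, over 3 livers, or 2 in IH at ZT0 and in control at ZT12 and ZT16, where the library with Saa1 above 10000 FPKM was left out and is drawn as an open circle. Fga, Lbp and Cp are highest at ZT0 to ZT4 and lowest at ZT12 to ZT16 in both conditions, Crp is lowest at ZT8 to ZT12, and Stat3 stands out in control at ZT4.

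Stat3, C4b, Cebpd, Il1rn, Itih3 and Itih4 passed in control and not in IH. Stat3 had an amplitude of 0.59 (standard error 0.12, limma adjusted p = 0.00265) and a peak at ZT 2.51 in control, and an amplitude of 0.05 (standard error 0.073, limma adjusted p = 0.789) in IH. Apcs, Mt1, Saa4, Serpina3m, Serpina3n and Trf passed in IH and not in control. Mt1 had amplitudes of 1.47 (standard error 0.63, limma adjusted p = 0.129) in control and 1.51 (standard error 0.42, limma adjusted p = 0.0108) in IH, with peaks at ZT 4.29 and ZT 9.15. A gene called in 1 condition is not shown to differ between them. The interaction of condition with the cosine called 0 of the 33 genes with all libraries (0.0% of all genes, smallest limma adjusted p among the 33 of 0.92). At an unadjusted p of 0.05 it held 1 of the 33 and 649 of the 13215 genes. Without the 3 livers it again called 0 (0.0% of all genes, smallest limma adjusted p of 0.377, for Stat3), while 16 of the 33 and 1417 of the 13215 genes had an unadjusted p of 0.05 or less. No difference in rhythm passed the adjustment. Saa1, Saa2, Mt2, Lcn2 and Orm2, which varied widely between mice, were called rhythmic in neither condition with or without the 3 livers.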

How the data were processed

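Poly-A RNA of 36 livers was sequenced with a stranded kit, 1 library per mouse. Per the study's methods and processing notes, the authors aligned reads to mm10 with TopHat2 2.1.1 and estimated FPKM for each library with Cufflinks 2.2.1. The deposited FPKM values were used as they stand. The annotation and the use of strand are not given in the sources used here. Table names gave the condition, and column names gave time point and replicate. No counts were used, so absolute depth is unknown. Of 24883 rows, 280 symbols listed more than once were left out, and of the 24066 others the 13215 averaging 0.1 FPKM or more were tested as log2(FPKM + 1). Fold changes on that scale understate the change of low genes.

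Moderated tests used limma 3.58.1 in R 4.3.3 with Benjamini-Hochberg adjustment over all tested genes and a threshold of 0.05. The level of IH minus control had time point as a factor, differences at each time point came from a fit of 12 groups, and rhythms were 24 h cosines called at a nominal P of 0.01. The study used that threshold with BIO_CYCLE, which was not run here. Each was fitted with all libraries and without the 3 with Saa1 above 10000 FPKM. The slope on Saa1 used the other 33. The scripts were tested on simulated data. The members and all lists were chosen with earlier results of these data known. Named genes are the listed members, with markers and lists given by counts and by their called genes. Alternatives covered the pseudocount, filter, scaling, model and each library left out. Limits on Saa1, slopes within 1 condition and the removal of the length trend were chosen after seeing the data. Replicate numbers did not pair the samples. Gene positions are from GENCODE M21 (GRCm38) and promoters from RefSeq (GRCm38.p6).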

Additional observations from a re-analysis of the deposited data

How the results depend on the processing

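The counts of acute-phase genes that moved by more than 1.5 times, or to or from 0, were the following. Rhythmic genes in control, 2 with all libraries, were 1 without a filter, 6 after scaling to a common sum, 1 after scaling by median of ratios, 5 with a spread shared over all libraries, 12 without the 3 libraries with Saa1 above 10000 FPKM, and 1 to 5 with 1 library left out (1 without Control ZT0 replicate 3, 5 without Control ZT0 replicate 2). Rhythmic genes in IH, 6 with all libraries, were 2 by median of ratios, 12 without the 3 libraries, 1 in an F test over time points, and 2 to 12 with 1 library left out (2 without IH ZT12 replicate 3, 12 without IH ZT0 replicate 2). Genes lower in IH at ZT4, 0 with all libraries, were 1 with a mean of at least 1 FPKM, 1 by median of ratios, 7 without the 3 libraries, 2 at a nominal P of 0.01, 3 with ZT4 fitted alone, and 0 to 2 (Stat3 and Steap4) with 1 library left out. Genes lower at ZT12, 0 with all libraries, were 1 at the nominal P and 0 to 2 (Cebpd and Trf) with 1 library left out. The slope on Saa1, 23 genes, was called for 14 with Saa1 at or under 1000 FPKM, 6 in IH alone, and 23 to 25 with 1 library left out. Scaling to a common sum made 1 gene lower in Control ZT12 replicate 2. Smaller moves in the genes higher in the 3 livers were from 29 to 28 or 30, from 22 to 18 to 27 and from 27 to 26 or 28. The settings that leave out libraries have fewer samples, and they gave more calls in some cases and fewer in others. The cause of these moves was not tested. Of all 13215 genes, the cosine passed for 20.0% (control) and 39.9% (IH) with all libraries, and for 27.4% and 42.4% without the 3. At ZT4, 0.272% of all genes were lower with all libraries and 2.21% without the 3. Where no share or number of all genes is given for a setting, the count does not show whether a move is particular to the acute-phase genes. The replicate number as a block gave 2 rhythmic genes in control, 7 in IH, 23 slopes and 0 for the other comparisons. Same-numbered samples had a mean correlation of 0.054 over 18 pairs, of which 6 were over 0.1, so the numbers were not taken to pair them. Scaling moved the split of all genes: slopes were 178 higher and 540 lower as deposited, 347 and 284 by median of ratios and 177 and 936 by common sum. Levels were 40 and 7, or 22 and 11 by median of ratios. ZT4 had 117 and 36, or 72 and 82. ZT12 had 36 and 66, 103 and 114 by median of ratios and 0 and 1 by common sum, which put the median of all genes at ZT12 at 0.11. In Control ZT12 replicate 2 the split was 484 higher and 926 lower, or 1140 and 349 by median of ratios and 212 and 2229 by common sum. A reversed call could be counted only for genes called in the main fit of a test with a direction. Those were the genes of the slope on Saa1, and none of them reversed. Estimates that were not called did change sign. For example, the difference of Saa1 at ZT0 ran from -1.60 to 2.47 with 1 library left out. With FPKM alone and 3 mice per group, the spread between mice limits these comparisons.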
